A study of Mus musculus with 4 samples.

Results

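The genes described here encode class I phosphatidylinositol 3-kinase (PI3K) and a pair of phosphatases that act on its lipid products, in the plantaris muscle of mice with or without PDK1 in muscle. The 9 members were chosen by symbol and comprise 4 catalytic subunits (Pik3ca, Pik3cb, Pik3cd and Pik3cg), 3 regulatory subunits (Pik3r1, Pik3r2 and Pik3r3) and 2 lipid phosphatases (Inpp5d and Inpp4b). All 9 were found among the 22180 genes that the arrays measured, each through a single probe set annotated to that gene alone. RNA came from male mice at 10 days after surgery, and was measured on the Affymetrix Mouse Gene 2.0 ST platform. Each of the 4 conditions had 1 array, namely sham surgery or synergistic muscle ablation in control mice and the same operations in M-PDK1KO mice. Synergistic muscle ablation removes the gastrocnemius and soleus of both lower limbs, so that the plantaris carries the load. M-PDK1KO mice, also called knockouts here, are homozygous for floxed alleles of the PDK1 gene (Pdpk1) and express Cre recombinase from the Mlc1f promoter, which is active in skeletal muscle. Mice without the knockout are labelled wild type, whereas the study's account of its animals describes controls as flox/flox mice without Cre, so by that account both groups carry the floxed alleles. The study gives an age for mice of its ablation experiment on muscle mass but not separately for those behind the arrays, and the sources do not state whether RNA was pooled.

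Class I PI3K phosphorylates the membrane lipid PtdIns(4,5)P2 at the 3 position, and the product, PtdIns(3,4,5)P3, recruits PDK1 and Akt to the membrane. Each enzyme pairs a catalytic subunit with a regulatory subunit. The p110α, p110β and p110δ catalytic subunits bind the p85 and p55 regulatory subunits, which carry SH2 domains and dock on tyrosine-phosphorylated receptors and adaptors, whereas p110γ binds other adaptors and responds to G protein–coupled receptors. Lipid phosphatases end the signal by removing phosphates from the inositol ring. In skeletal muscle, this pathway carries the effects of insulin and insulin-like growth factors on glucose uptake and protein synthesis.

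The values are log2 signals per probe set as deposited, and the log2 scale is inferred from their range, 0.70 to 13.2. Because probe sets differ in how they bind their targets, differences were taken across arrays for each gene. Levels of different genes were set against each other only roughly, by whether they lay above or below the median of all genes. For the marker lists, linear signals were also summed on each array, and genes with high signals weigh most in such sums. The median over all genes was between 3.17 and 3.29 on the 4 arrays. The median of all genes' values over the 4 arrays, 3.23, served as a rough mark for low signals. It is not a detection limit, and no detection calls were used here. Pdpk1, the deleted gene, had sham and ablation values of 6.81 and 6.85 in controls and 5.96 and 6.23 in knockouts, so it was lower on both knockout arrays, as the labels require. The muscle label was met as well, since the skeletal actin gene Acta1 had values between 12.65 and 12.70, near the top of the range of each array. The effect of ablation was tested with limma over both genotypes, that is, 2 ablation against 2 sham arrays with genotype as a further term and 1 residual degree of freedom. Genes are said to have risen or fallen where the p-value, adjusted over all 22180 genes, was under 0.05. Differences between single arrays have no test. The residual of each gene's fit rests on the difference between the effects of ablation in the 2 genotypes. From it and from the same residuals over all genes, limma estimated each gene's error (1 residual and 4.22 prior degrees of freedom). The p-values and SEs thus measure no spread between replicate mice or arrays, and differences between these 4 arrays may be technical.

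After ablation, 4 of the 9 genes rose and 1 fell over both genotypes. The genes that rose were Pik3r3, Inpp5d, Pik3cg and Pik3r2, and the gene that fell was Pik3r1. Of all genes tested, 10.4% rose and 10.6% fell by the same test. The remaining genes, Pik3ca, Pik3cb, Pik3cd and Inpp4b, were lower on the ablation array in both genotypes and did not pass the test. The median effect of ablation was -0.25 over the 9 genes and -0.02 over all genes. In each of the 9 genes the ablation arrays lay entirely on one side of the sham arrays, above them in 4 genes and below them in 5. Over all genes, both ablation arrays were above both sham arrays in 26.6% and below them in 30.8%, so that such a separation alone is common on these arrays.

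**Figure D1:**
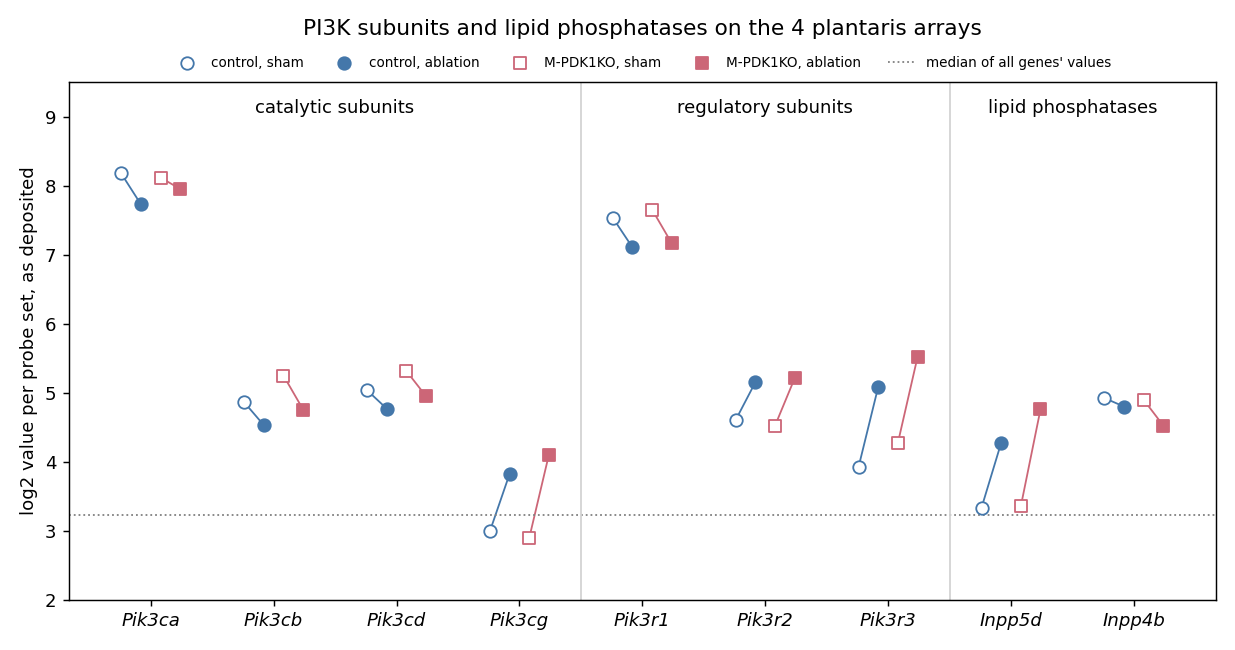
Deposited log2 values (vertical axis) of the 9 genes on the 4 arrays, with circles for control mice, squares for M-PDK1KO mice, open symbols for sham surgery and filled symbols for ablation, each symbol being 1 array. Lines join the arrays of a genotype, and they rise for Pik3cg, Pik3r2, Pik3r3 and Inpp5d and slope downward for the other 5 genes in both genotypes.

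Among the catalytic subunits, only the gene for p110γ passed the test. Pik3cg, which encodes the catalytic subunit that acts downstream of G protein–coupled receptors and is best known from leukocytes, had values of 2.99 (sham) and 3.82 (ablation) in controls and 2.89 and 4.10 in knockouts. Both sham values lay below the median of all genes' values, 3.23, and both ablation values lay above it. Whether the sham signal exceeded the background of the probe set was not tested, so that fold changes of Pik3cg may be understated. Pik3cg rose by 1.02 ± 0.14 on the log2 scale (SE, 2 against 2 arrays; limma, adjusted p = 0.00807), or 2.03-fold. This call was lost when every probe set of the array was tested as a feature of its own (limma, adjusted p = 0.0531).

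The genes for the other catalytic subunits were lower on the ablation arrays without passing the test. Pik3ca, which encodes p110α, the isoform that carries most of the insulin signal, had values of 8.17 and 7.73 in controls and 8.12 and 7.95 in knockouts, sham before ablation. Its effect of ablation was -0.31 ± 0.13 (SE; limma, adjusted p = 0.175), with a 95% interval of -0.63 to 0.02. Pik3cb, which encodes p110β, had values of 4.86 and 4.53 in controls and 5.25 and 4.76 in knockouts. The knockout value was the higher after each operation. The effect of ablation on Pik3cb was -0.41 ± 0.12 (SE; limma, adjusted p = 0.0677), and its adjusted p was between 0.0431 (among genes above the median only) and 0.465 (without the M-PDK1KO sham array, where the effect was -0.22) over the alternatives run. It passed the threshold in that first setting and after quantile normalization (adjusted p = 0.0435). Pik3cd encodes p110δ, an isoform that is abundant in leukocytes. It had values of 5.04 and 4.77 in controls and 5.31 and 4.95 in knockouts, with an effect of -0.32 ± 0.11 (SE; limma, adjusted p = 0.125). Pik3cd and Pik3cg, both known from leukocytes, thus had effects of opposite sign.

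All 3 genes for regulatory subunits passed the test, in unlike directions. Pik3r1, which encodes p85α and its short forms p55α and p50α, had values of 7.53 (sham) and 7.10 (ablation) in controls and 7.65 and 7.16 in knockouts. Both ablation values were lower than both sham values, and the genotypes' values lay within 0.12 of each other after either operation. Pik3r1 fell by 0.46 on the log2 scale, with an SE of 0.11 (limma, adjusted p = 0.0454), to 0.728-fold. This was the call nearest the threshold, and it was lost after quantile normalization (effect -0.35, adjusted p = 0.0888), with every probe set as a feature (adjusted p = 0.131) and, with ablation as the only term, without any 1 of the 4 arrays (adjusted p between 0.0768 and 0.138).

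Pik3r2 and Pik3r3 rose. Pik3r2, which encodes p85β, had values of 4.60 and 5.15 in controls and 4.52 and 5.21 in knockouts, and it rose by 0.62 ± 0.12 (SE; limma, adjusted p = 0.0207), or 1.53-fold. The 2 sham values differed by 0.08 and the 2 ablation values by 0.06, against responses of 0.55 and 0.69. The call was lost with every probe set as a feature (adjusted p = 0.0845) and when the control ablation, M-PDK1KO sham or M-PDK1KO ablation array was left out in the same way (adjusted p = 0.05003, 0.0545 and 0.0700). Pik3r3, which encodes p55γ, a shorter regulatory subunit, had values of 3.92 and 5.09 in controls and 4.27 and 5.52 in knockouts. It had the widest range of the 9 genes over the 4 arrays, 1.59, and the M-PDK1KO value was the higher after each operation. Pik3r3 rose by 1.20 ± 0.11 (SE; limma, adjusted p = 0.00302), or 2.30-fold, and its effect lay at percentile 96.8 of all genes.

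Because Pik3r1 was lower and Pik3r3 higher on the same arrays, their ratio within an array moved more than either gene. The signal of Pik3r3 relative to that of Pik3r1 was 3.01-fold its sham value after ablation in controls and 3.33-fold in knockouts. For Pik3r2 relative to Pik3r1, the corresponding values were 1.96-fold and 2.26-fold. These ratios do not depend on a scaling factor between arrays, and they show unequal change rather than which gene changed.

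**Figure D2:**
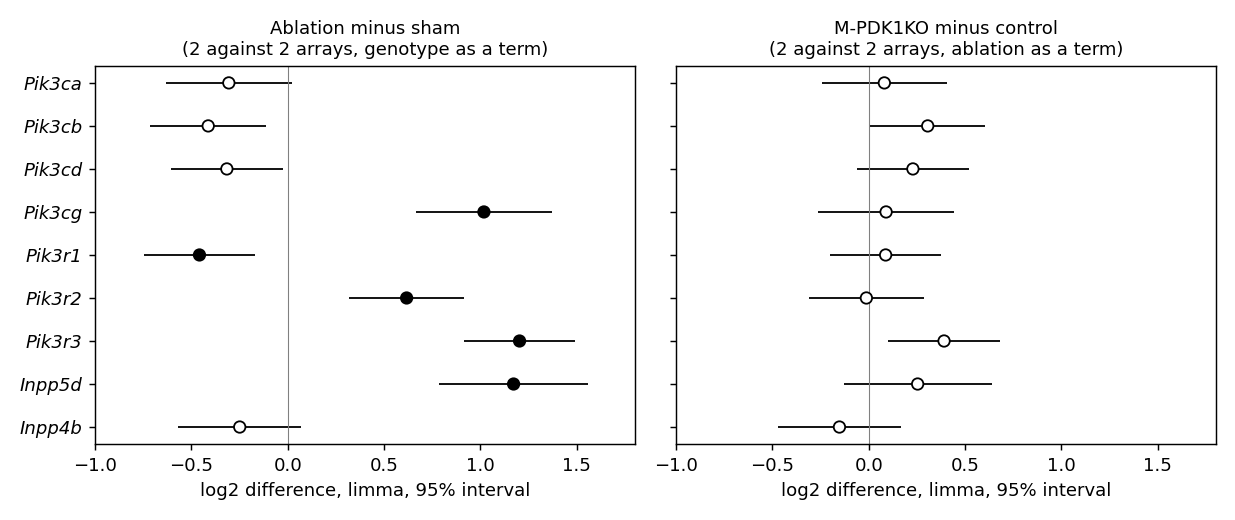
Log2 differences for the 9 genes from limma (horizontal axes), on the left ablation minus sham and on the right M-PDK1KO minus control, each 2 against 2 arrays, with 95% intervals as lines and filled points where the adjusted p was under 0.05. The intervals of Pik3cg, Pik3r2, Pik3r3 and Inpp5d lie above 0 on the left and those of Pik3r1, Pik3cb and Pik3cd below 0, of which only that of Pik3r1 has a filled point, and no point is filled on the right.

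Of the phosphatase genes, only Inpp5d passed the test. Inpp5d encodes SHIP1, a 5-phosphatase of hematopoietic cells that converts PtdIns(3,4,5)P3 to PtdIns(3,4)P2. It had values of 3.33 (sham) and 4.27 (ablation) in controls and 3.35 and 4.76 in knockouts. The sham values were nearly equal and close to the median of all genes' values, and the M-PDK1KO ablation value was the highest. Inpp5d rose by 1.17 ± 0.15 (SE; limma, adjusted p = 0.00680), or 2.25-fold, at percentile 96.6 of all genes. Inpp4b encodes a 4-phosphatase that acts on PtdIns(3,4)P2, the product of SHIP1. It had values of 4.92 and 4.80 in controls and 4.89 and 4.52 in knockouts, with an effect of -0.25 ± 0.13 (SE; limma, adjusted p = 0.251). Its range over the 4 arrays, 0.40, was the smallest of the 9 genes.

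The promoters of 4 members are shown because Inpp5d, Pik3cg and Pik3r3 had the widest ranges over the arrays, and because Inpp4b, which was not called, holds the same motif. Sequences are from RefSeq (GRCm38.p6) and run from 250 bases before to 50 bases after a transcription start site. All 9 genes matched this table, with 15 windows in all. Capitals mark GAGGAA, the core of the site bound by the leukocyte transcription factor PU.1, or its reverse complement TTCCTC.
Inpp5d, chr1:87620062-87620361, plus strand: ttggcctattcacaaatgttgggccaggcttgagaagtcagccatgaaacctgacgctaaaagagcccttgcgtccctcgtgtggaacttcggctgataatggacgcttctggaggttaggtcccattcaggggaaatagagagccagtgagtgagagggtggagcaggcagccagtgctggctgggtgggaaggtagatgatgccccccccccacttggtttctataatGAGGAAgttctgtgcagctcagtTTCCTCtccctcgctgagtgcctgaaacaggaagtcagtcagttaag
Pik3cg, the first of 2 windows, chr12:32208610-32208909, minus strand: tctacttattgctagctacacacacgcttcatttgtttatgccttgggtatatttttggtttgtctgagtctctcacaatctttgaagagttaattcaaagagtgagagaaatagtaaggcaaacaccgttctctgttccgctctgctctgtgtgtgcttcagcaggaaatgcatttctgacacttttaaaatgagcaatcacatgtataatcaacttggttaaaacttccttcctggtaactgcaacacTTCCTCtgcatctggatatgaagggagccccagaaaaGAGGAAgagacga
Pik3r3, the second of 3 windows, chr4:116221358-116221657, plus strand: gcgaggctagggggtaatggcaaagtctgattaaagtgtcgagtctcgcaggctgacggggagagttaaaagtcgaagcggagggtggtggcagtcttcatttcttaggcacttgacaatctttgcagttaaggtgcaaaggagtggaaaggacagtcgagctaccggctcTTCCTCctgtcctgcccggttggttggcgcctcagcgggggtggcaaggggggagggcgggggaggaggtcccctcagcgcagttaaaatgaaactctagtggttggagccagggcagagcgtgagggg
Inpp4b, chr8:81342312-81342611, plus strand: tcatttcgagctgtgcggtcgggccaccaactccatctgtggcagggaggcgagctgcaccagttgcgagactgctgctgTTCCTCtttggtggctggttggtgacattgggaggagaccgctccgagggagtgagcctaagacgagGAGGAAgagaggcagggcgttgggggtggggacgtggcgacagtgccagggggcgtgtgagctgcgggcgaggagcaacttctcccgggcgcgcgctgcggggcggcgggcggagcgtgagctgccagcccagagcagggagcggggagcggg

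GAGGAA occurred on either strand in 6 of the 15 windows, from 4 of the 9 genes (Pik3cg, Pik3r3, Inpp5d and Inpp4b), against 28.3% of 32817 promoter windows of the same length. In Inpp5d, the matches began at -20 and 3 relative to the start site, and in the Pik3cg window shown at 0 and 37. In the Pik3r3 window shown, the match began at -79, and in Inpp4b the matches began at -170 and -103. Of the Pik3r3 windows not shown, the third holds 1 match and the first holds none. The 2 windows of Pik3cg overlap and hold the same matches. The GC box GGGCGG was found in 10 of the 15 windows (35.6% of all windows), from 7 of the 9 genes, and was absent from the windows of Pik3cg and Inpp5d. The E-box CAGCTG, searched for because myogenic factors bind such sites, was found in 1 window, of Pik3r3 (16.3% of all windows). The forkhead motif TGTTTAC was found in 1 window, of Pik3cg (3.65%), and the AP-1 motif TGANTCA in 1 window, of Pik3ca (7.81%). All motifs were searched on both strands, and none of the 5 motifs contains another. The motifs were chosen after a promoter had been seen, so that these counts are descriptions. A match describes the sequence and does not show that a factor binds there.

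The responses to ablation had the same sign in both genotypes for all 9 genes, whereas the signs were opposite in 31.2% of all genes. That share includes genes below the median of all genes' values on every array, as no member was. At a 2-fold cutoff, only Pik3r3 was at least 2-fold higher in control mice (2.24-fold), whereas Pik3r3, Inpp5d and Pik3cg were so in M-PDK1KO mice (2.37-, 2.65- and 2.31-fold). Over all genes, 4.49% were at least 2-fold higher in controls and 4.77% in knockouts. In control mice, Inpp5d at 1.92-fold and Pik3cg at 1.78-fold lay just under that limit. No member was at most 0.5-fold in either genotype, against 2.54% and 2.71% of all genes. The knockout response lay above the control response in 5 of the 9 genes, against 51% of all genes. By size, it was the larger for 8 of the 9 genes, against 50.4% of all genes, the exception being Pik3ca, at -0.45 in controls and -0.17 in knockouts.

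The difference between the responses lay within its spread over all genes for most members. Subtracting the control from the M-PDK1KO response gave 0.46 for Inpp5d and 0.38 for Pik3cg, and of the members these 2 alone exceeded the SD of that difference over all genes, 0.32. The share of all genes beyond that SD was not counted, so that exceeding it does not set the 2 genes apart. In Pik3cg, knockout minus control was -0.10 between the sham arrays, whose signals were low, and 0.28 between the ablation arrays. Its value thus rests only in part on the low sham signals. The remaining 7 genes lay between -0.25 and 0.28. None of the 9 reached a 2-fold difference of responses, as 0.762% of all genes did. With 1 array per condition, no difference between responses could be tested.

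**Figure D3:**
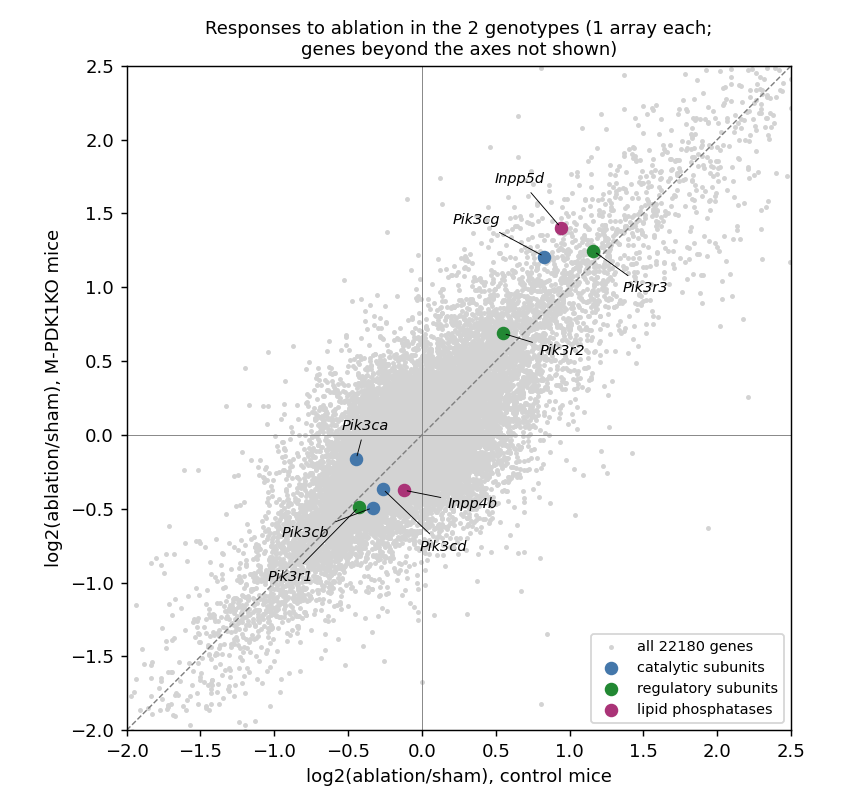
Response to ablation, log2(ablation/sham), in control mice (horizontal axis) against M-PDK1KO mice (vertical axis), for the 9 genes in color by role and all 22180 genes in gray, each axis from 1 pair of arrays, with the dashed line marking equal responses. Pik3cg and Inpp5d lie above the line at 0.83 and 1.21 and at 0.94 and 1.40, whereas Pik3r3 lies close to it at 1.16 and 1.25.

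Loss of PDK1 was compared within each operation. After sham surgery, log2(M-PDK1KO/control) was 0.39 for Pik3cb, 0.35 for Pik3r3 and 0.28 for Pik3cd, and between -0.10 and 0.12 for the other 6 genes. After ablation it was 0.49 for Inpp5d, 0.43 for Pik3r3, 0.28 for Pik3cg and -0.28 for Inpp4b, and between 0.06 and 0.23 for the other 5. No member differed 2-fold, as 0.162% of all genes did after sham surgery and 0.14% after ablation. The M-PDK1KO value was the higher after both operations in 5 of the 9 genes (Pik3cb, Pik3cd, Pik3r1, Pik3r3 and Inpp5d), against 25.4% of all genes, and the lower in 1 (Inpp4b). In the other 3, the sign differed between the operations, as in 48.7% of all genes.

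For genotype over both operations, no member passed the adjusted p in limma, nor did any of the 22180 genes (0%). At an unadjusted p under 0.05, 2 of the 9 genes passed, as did 5.45% of all genes. These were Pik3r3, with an effect of 0.39 ± 0.11 (SE; limma, adjusted p = 0.870), and Pik3cb, with 0.31 ± 0.12 (SE; limma, adjusted p = 0.870). Pdpk1 itself, at -0.74 ± 0.12, had the same adjusted p of 0.870, so that this fit did not call a gene known to be deleted in muscle. The 95% intervals bounded the genotype effect at 0.68 for Pik3r3 and 0.64 for Inpp5d on the upper side and at -0.47 for Inpp4b on the lower side, with those of the other 6 genes between -0.31 and 0.61.

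Other genes of phosphoinositide metabolism gave a background for the members. Of 9 other PI3K subunits and regulators, 3 rose and 1 fell, with a median effect of ablation of -0.05. Pik3ap1, an adaptor of PI3K in B cells and macrophages, rose by 1.02 in controls and 1.64 in knockouts, and Pik3r5, a regulatory partner of p110γ, by 1.13 and 0.81. Pik3c2a, a class II enzyme, rose by 0.45 and 0.61, and Pik3ip1, an inhibitor of PI3K, fell by 0.66 and 0.68. Pik3r6, the other regulatory partner of p110γ, was not called (limma, effect 0.11, adjusted p = 0.766), with responses of 0.46 and -0.24.

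Of 18 measured genes for other phosphoinositide phosphatases, none rose and 3 fell (median -0.17), namely the myotubularin family genes Mtmr14, Mtmr1 and Mtmr3, whose products act on lipids with a 3-phosphate. Mtmr14 fell by 0.70 in controls and 1.11 in knockouts. Of 10 measured phosphoinositide kinases, 2 rose and 1 fell (median 0.07). Pip4k2a rose by 1.30 and 1.36 and Pi4k2b by 1.13 and 1.40, whereas Pip4k2b fell by 0.57 and 0.90. Unlike these phosphatases, Inpp5d was among the genes that rose.

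Receptors and adaptors that recruit PI3K included 10 genes that rose and 4 that fell of 19 measured (median 0.50). Rras, a small GTPase, rose by 0.97 in controls and 0.95 in knockouts, and the receptor genes Axl and Egfr rose by 0.83 and 0.79 and by 0.66 and 0.83. Irs2, an adaptor of the insulin receptor, fell by 0.66 and 2.07. Of 24 measured effectors that bind 3-phosphoinositides, 9 rose and 1 fell (median 0.29). Plek (pleckstrin) rose by 2.38 and 2.11, Cyth4 by 2.12 and 2.09 and Vav2 by 0.73 and 1.25, whereas Akt2 fell by 0.87 and 1.13. Over the 80 measured genes of these 5 lists, 24 rose (30.0%) and 10 fell (12.5%). The lists and the members were chosen with results of these arrays known, so that these counts are descriptions.

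Most pan-leukocyte and macrophage markers rose, as did Pik3cg, Inpp5d, Pik3r3 and Pik3r2. Pik3cd, also known from leukocytes, was lower in both genotypes without being called (effect -0.32). Of 9 pan-leukocyte markers, 8 rose, with a median effect of 1.73, and the sum of their linear signals was 143 and 147 on the control and M-PDK1KO sham arrays and 503 and 570 on the ablation arrays. Ptprc (CD45) rose by 2.29 in controls and 2.42 in knockouts, Cd53 by 2.31 and 2.72, Itgb2 by 2.26 and 2.06 and Lcp1 by 2.21 and 1.99. Spi1, which encodes PU.1, rose by 1.06 and 0.93. Of 13 macrophage markers, 11 rose, with a median of 2.01, and their summed signal was 492 and 522 on the sham and 2543 and 2634 on the ablation arrays. Cd68 rose by 3.005 and 3.47, C1qb by 2.97 and 2.84, Lyz2 by 2.82 and 2.70 and Mrc1 by 2.30 and 2.34. In whole muscle, more cells of a type and more RNA per cell cannot be told apart. The part of leukocytes in the rise of Pik3cg, Inpp5d, Pik3r3 and Pik3r2 was not tested.

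Lymphocyte and neutrophil markers were mostly at low signal. Of 11 measured lymphocyte and NK cell markers, 2 rose (Cd4 by 0.78 and 0.82 and Cd3g by 0.59 and 0.73; median 0.18), and 10 lay below the median of all genes' values on every array, among them the defining genes Cd3e, Cd8a, Cd79a and Ms4a1. Their summed signal was 57.4 and 53.6 on the sham and 67.5 and 66.6 on the ablation arrays. Of 8 neutrophil markers, 1 rose (Csf3r, by 0.43 and 0.70; median 0.11), and 7 lay below that median on every array, with sums of 40.5 and 41.1 against 47.7 and 47.3. Among markers of single leukocyte types, those of macrophages were thus the ones that mostly rose.

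Markers of other cell types moved as well. Of 8 fibroblast markers, 7 rose (median 2.08), with summed signals of 4129 and 4548 on the sham and 16061 and 17136 on the ablation arrays, among them Col3a1, which rose by 3.58 in both genotypes, Lum, by 2.56 and 2.86, Col1a1, by 2.77 and 2.42, and Col1a2, by 2.54 and 2.38. Of 8 satellite cell and myoblast markers, 3 rose (median 0.37), with Mymk (myomaker) at 4.05 and 4.83, Myog at 1.10 and 1.42 and Vcam1 at 1.06 and 1.29. Of 8 endothelial markers, 2 rose (Pecam1 by 0.73 and 0.64 and Cdh5 by 0.52 and 0.57; median 0.28). Of 5 adipocyte markers, 2 fell (Cidec by 0.80 and 0.83 and Plin1 by 0.75 and 0.60; median -0.52), and of 3 measured Schwann cell markers, 1 rose (Pmp22, by 0.53 and 0.41; median 0.12). The adipocyte marker Fabp4 was higher by 0.36 and 0.14 without being called. The summed adipocyte signal was 655 and 706 on the sham and 815 and 756 on the ablation arrays. Most of that sum is Fabp4, with log2 values of 9.27 and 9.37 on the sham and 9.63 and 9.51 on the ablation arrays. It thus does not describe the list as a whole. Lower in both genotypes without being called were Tek (endothelial) by 0.56 and 0.25, Myod1 (myoblast) by 0.14 and 0.49 and Sox10 (Schwann cell) by 0.20 and 0.49.

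Of the members, Pik3r1 fell, a call that was lost under several alternatives. Pik3ca, Pik3cb, Pik3cd and Inpp4b were also lower in both genotypes without passing the test. Some myofiber markers fell as well. Of 14 such markers, 7 fell, 5 were not called and 2 rose, with a median effect of -0.40, against -0.46 for Pik3r1 and -0.31 for Pik3ca. Their summed signal was 63365 and 62667 on the sham and 53636 and 53178 on the ablation arrays. Pvalb (parvalbumin) fell by 0.82 in controls and 0.61 in knockouts, the calcium channel genes Cacna1s and Ryr1 by 0.76 and 0.65 and by 0.64 and 0.71, and Tnni2 by 0.52 and 0.58. The markers that rose were 2 fast myosin heavy chain genes, Myh1, by 0.45 and 0.63, and Myh2, by 0.57 and 0.43. Myh4, another fast myosin heavy chain gene, fell by 0.46 and 0.59 (limma, adjusted p = 0.0332). The part of a smaller share of myofiber RNA in the fall of Pik3r1 was not tested.

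**Figure D4:**
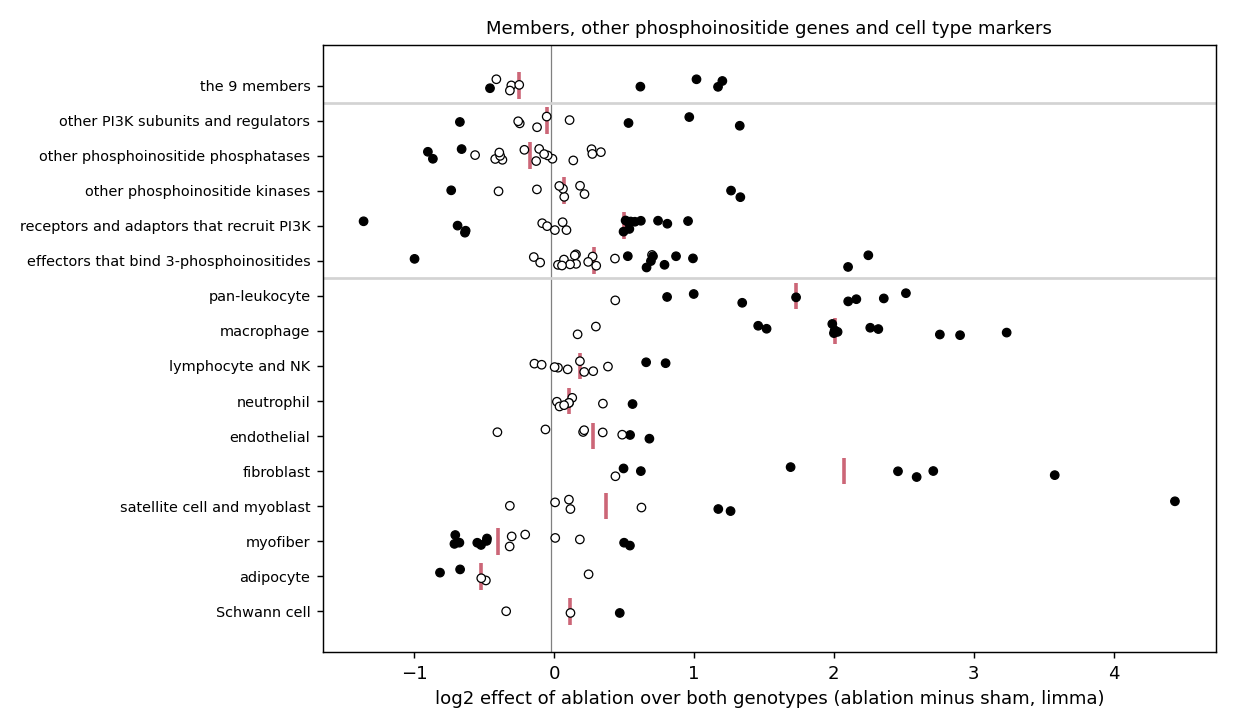
Effect of ablation over both genotypes (horizontal axis, log2, ablation minus sham, limma) for each of the 9 members, each measured gene of 5 lists of other phosphoinositide genes and each marker of 10 cell types, with filled points where the adjusted p was under 0.05, colored bars at the list medians and the gray line at the median of all genes. The bars of the macrophage and pan-leukocyte markers stand at 2.01 and 1.73 and that of the myofiber markers at -0.40.

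For the 3 members with the widest ranges, the genes of most similar pattern were sought among 11243 named genes with signal on at least 1 array over the median of all genes, by the Euclidean distance between values centered on each gene's mean over the 4 arrays. Nearest to Pik3r3 were Robo1, Chd3 and Dab2, at distances of 0.05, 0.10 and 0.11. Robo1, for example, had responses of 1.21 in controls and 1.27 in knockouts. Nearest to Inpp5d were Baz1a, Fscn1 and Csk, at 0.04, 0.08 and 0.09, and Csk, a kinase that inhibits Src family kinases, had responses of 0.98 and 1.38. Nearest to Pik3cg were Cdr2l, Poglut3 and Ptbp1, at 0.04, 0.05 and 0.05. With 4 arrays, these likenesses are descriptions.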

How the data were processed

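Plantaris RNA was hybridized to Affymetrix Mouse Gene 2.0 ST arrays, 1 array for each genotype and operation. The log2 values were used as the authors deposited them, summarized to 1 value per probe set. The study names Transcriptome Viewer, whereas background correction, summarization, normalization and genome build are not given in the sources used here. Of 41345 probe sets, 23521 named exactly 1 gene in the platform's annotation, 1820 named several and were left out, and the rest are unnamed here. The probe set with the highest mean represented a gene, and no filter on low values was applied.

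A linear model with genotype and ablation as additive terms was fitted to the log2 values of all 22180 genes with limma 3.58.1 in R 4.3.3, with Benjamini-Hochberg adjustment, and the procedure was tested on simulated data. The number of arrays limits the precision. The members and the 5 pathway and 10 marker lists were chosen with earlier results of these data known. Besides the members and Pdpk1, up to 4 called genes of each list with the largest effects of 1 sign in both genotypes were named, and 3 nearest genes in pattern for each of 3 members. Acta1, Spi1, Pik3r6, Myh1, Myh2, Myh4, Fabp4, Tek, Myod1, Sox10 and the low lymphocyte markers were named outside that rule, after their values were seen. The motifs were chosen after a promoter had been seen. Alternatives were other normalizations, probe set rules, filters, limma settings, fold cutoffs and leaving out arrays. Promoters were searched in Python 3.11.15, and figures were drawn with matplotlib 3.10.9.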

Additional observations from a re-analysis of the deposited data

Results flagged for a closer look

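For 3 of the 9 genes, the difference between genotypes had opposite signs after the 2 operations, and this change was not tested, since each condition has 1 array. For Pik3cg, the log2 ratio of knockout to control was -0.10 in sham-operated and 0.28 in ablated mice, a change of 0.38. For Pik3ca, the values were -0.06 and 0.22, a change of 0.28, and for Pik3r2, -0.08 and 0.06, a change of 0.14. Both sham values of Pik3cg lay below the median of all genes' values, so that the sign of its sham difference is uncertain. Over all genes, 48.7% had opposite signs in this way. Pik3r6, a regulatory partner of p110γ that was singled out after its values were seen, had responses to ablation of opposite sign, 0.46 in controls and -0.24 in knockouts, a difference of -0.70 that was not tested either. Such opposite responses were found in 31.2% of all genes. With 1 array per condition, no search for an outlying array within a group was possible.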

How the results depend on the processing

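Inpp5d and Pik3r3 rose under every alternative run, and no effect of ablation changed sign. Inpp5d passed only narrowly when every probe set was tested as a feature (limma, adjusted p = 0.0496). With every probe set as a feature, 2 members rose and 0 fell, with 1342 and 940 of all 41345 features called. Among genes above the median only, 4 members rose and 2 fell (Pik3r1 and Pik3cb), with 2501 and 2737 of 12018 genes called. After quantile normalization, the 1 member that fell was Pik3cb in place of Pik3r1. Leaving out each array in turn, with ablation as the only term and the lone array assumed to vary like the others, gave 3 to 4 members that rose and 0 that fell, with 1323 to 1760 of all genes higher and 1055 to 1633 lower (2309 and 2354 with all arrays). The lowest of these counts, 1323 and 1055, were without the knockout ablation array, and 1397 and 1372 genes were lower without the control sham and the control ablation array. At a 1.5-fold cutoff, 3 members were higher in control mice and 4 in M-PDK1KO mice, and at a 3-fold cutoff 0 in either genotype. The shares of all genes at these cutoffs were not counted. The genotype effect on Pik3r2, -0.01, was 0.0024 after quantile normalization, and no member or other gene was called for genotype under any alternative. The causes of these changes were not tested, beyond the larger or smaller number of features or arrays in the fit. Quantile normalization moved a member's difference between arrays by up to 0.13 and median centering by up to 0.02. No paired analysis was possible because the labels give no replicate numbers. With 1 array per condition, signals near the median of all genes, such as those of Pik3cg after sham surgery, carry no estimate of their own error.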
